A study of Mus musculus with 12 samples.

Results

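Proteins that pass the glomerular filter are taken back by cells of the proximal tubule through receptor-mediated endocytosis. Megalin and cubilin bind the filtered proteins at the brush border, adaptors and clathrin draw the loaded receptors inward, and the endosome is acidified so that the ligand is released to lysosomes and the receptor returns to the surface. Inherited loss of members of this machinery is known to cause proteinuria, as in Donnai-Barrow syndrome (LRP2), Imerslund-Gräsbeck syndrome (CUBN or AMN), Dent disease (CLCN5 or OCRL), Lowe syndrome (OCRL) and cystinosis (CTNS).

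Here the mRNA of 8 genes of this machinery is described: the receptors Lrp2 and Cubn, their partners Amn and Lrpap1, the adaptor Dab2, and the endosomal and lysosomal genes Clcn5, Ocrl and Ctns. The genes were chosen by symbol for their known role, and all 8 were found among the 37681 genes of the deposited table, with 1140 or more reads per mouse each.

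RNAseq was performed on kidney cortex of 3 TRACK mice, genotype TRACK/gamma-HIF1alphaM3 TG+, and of 3 TG− littermates, which are wild type. The TRACK transgene, also labelled GGT-HIF1aM3, expresses a mutated, constitutively active HIF1α in renal proximal tubules and serves as a model of clear cell renal cell carcinoma. All 6 mice were untreated C57BL/6 males, 18 months old, and a thin outer slice of cortex of each of the 2 kidneys of a mouse gave a library of its own. The TG+ mice carry the numbers 43-29, 43-49 and 43-75, the TG− mice 43-26, 43-50 and 43-76, and values of the mice of a group are given in this order. Whole cortex holds other cells besides the tubule cells in which the transgene is active.

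The 12 libraries held 21888584 to 33704850 reads in genes, and the 2 kidneys of a mouse were summed to 48052131 to 60506785 reads. The labels were checked with Car9, a known HIF1α target, at 166, 122 and 155 CPM (read counts scaled to the normalized library size) in the TG+ mice and 11.7, 14.8 and 17.6 CPM in the TG− mice. The row of mouse Hif1a itself was at 91.7, 109 and 86.3 CPM in TG+ and 107, 103 and 103 CPM in TG−, and how transgene reads were assigned is not given in the sources used here. All 20 genes of a list of proximal tubule markers were at 1 CPM or more in the TG− mice. Between the kidneys of each mouse, counts varied beyond sampling noise, and more so in every TG+ mouse than in any TG− mouse. The mean chi-square a gene was 3.58, 7.30 and 4.52 in the TG+ mice and 2.41, 2.59 and 1.95 in the TG− mice.

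The first question was how much of each gene TG− cortex held. Levels of different genes were compared as RPKM (reads scaled to transcript length and library size, as deposited by the authors), averaged over the kidneys of a mouse. Lrp2, which encodes megalin, the large scavenger receptor of the brush border, was the highest of the 8 at 121 ± 8.01 RPKM (SD, n = 3 TG− mice) and ranked 290 among the 37681 genes. Amn, which encodes amnionless, the membrane anchor of cubilin, followed at 77.0 ± 3.52 RPKM. Lrpap1, which encodes the chaperone RAP that escorts receptors of the LDL receptor family through the endoplasmic reticulum, stood at 66.8 ± 3.31 RPKM. Cubn, which encodes cubilin, the receptor for albumin and for intrinsic factor with vitamin B12, stood at 42.2 ± 5.19 RPKM.

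Dab2, the adaptor that links the tail of megalin to clathrin, was at 26.0 ± 0.945 RPKM. Clcn5, which encodes the endosomal chloride-proton exchanger ClC-5, was at 15.3 ± 0.725 RPKM. The 2 lowest genes were Ctns, which encodes cystinosin, the cystine exporter of lysosomes, at 4.65 ± 0.192 RPKM, and Ocrl, which encodes an inositol 5-phosphatase of endosomes, at 1.25 ± 0.0325 RPKM. No neighbours in this order overlapped between TG− mice, and Lrp2 was 97.2-fold above Ocrl. In TG+ mice Lrpap1 (67.0 ± 2.07 RPKM) stood above Amn (65.1 ± 0.669 RPKM), with values of the mice that overlapped, and the other genes held the same order without overlap. RPKM depends on the transcript length that the authors used.

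The genes lie apart in the genome, as placed here by Ensembl identifier in GENCODE M21 (GRCm38), whereas the reads were mapped to mm9. Lrp2 spans chr2:69424340-69586065 on the minus strand with 79 exons and 15460 bases in its longest transcript, and Cubn spans chr2:13276338-13491813 on the minus strand with 67 exons. Amn lies at chr12:111271095-111276426 (plus), Lrpap1 at chr5:35091501-35105766 (minus) and Dab2 at chr15:6299788-6440712 (plus). Clcn5 at chrX:7153810-7319358 (minus) and Ocrl at chrX:47912387-47965868 (plus) share the X chromosome, and Ctns lies at chr11:73183596-73199042 (minus). Cubn and Dab2 each overlap a gene on the opposite strand (Gm13270 and Gm16311), and Clcn5 overlaps Gm26401 on the opposite strand and the genes of 5 microRNAs. Whether counting used strand is not given in the sources used here, so reads from such a pair cannot be told apart.

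Since the transgene encodes a transcription factor that binds the letters ACGTG or GCGTG, the start regions of the genes were searched for them on both strands. Each region, from RefSeq (GRCm38.p6), runs from 250 bases before a start to 50 bases after it, and 11 starts were listed for the 8 genes. The receptor genes Lrp2 and Cubn are printed because they share the uptake of filtered protein, Amn because its match lies nearest to its start, and Lrpap1 as the chaperone gene with a match and no called change. The letters found are in capitals and each line is read 5′ to 3′ along the gene.
Lrp2, chr2:69585980-69586279, minus strand: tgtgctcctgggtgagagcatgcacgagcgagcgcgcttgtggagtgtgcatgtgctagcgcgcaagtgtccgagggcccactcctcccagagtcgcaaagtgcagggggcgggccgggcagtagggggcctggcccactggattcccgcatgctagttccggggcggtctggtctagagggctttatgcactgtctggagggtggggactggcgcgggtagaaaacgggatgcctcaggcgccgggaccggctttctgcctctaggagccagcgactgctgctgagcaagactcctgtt
Cubn, chr2:13491827-13492126, minus strand: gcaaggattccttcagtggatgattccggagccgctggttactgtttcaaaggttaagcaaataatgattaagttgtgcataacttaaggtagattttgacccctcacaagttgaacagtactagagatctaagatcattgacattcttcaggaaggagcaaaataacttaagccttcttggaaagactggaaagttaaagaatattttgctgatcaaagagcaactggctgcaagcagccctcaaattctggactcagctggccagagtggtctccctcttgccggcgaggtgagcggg
Amn, chr12:111270846-111271145, plus strand: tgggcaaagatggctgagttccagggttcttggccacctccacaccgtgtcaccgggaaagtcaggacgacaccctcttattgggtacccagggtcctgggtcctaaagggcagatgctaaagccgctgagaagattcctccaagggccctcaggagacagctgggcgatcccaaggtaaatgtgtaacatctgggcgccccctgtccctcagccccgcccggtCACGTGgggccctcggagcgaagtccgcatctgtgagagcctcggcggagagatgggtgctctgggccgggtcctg
Lrpap1, chr5:35105650-35105949, minus strand: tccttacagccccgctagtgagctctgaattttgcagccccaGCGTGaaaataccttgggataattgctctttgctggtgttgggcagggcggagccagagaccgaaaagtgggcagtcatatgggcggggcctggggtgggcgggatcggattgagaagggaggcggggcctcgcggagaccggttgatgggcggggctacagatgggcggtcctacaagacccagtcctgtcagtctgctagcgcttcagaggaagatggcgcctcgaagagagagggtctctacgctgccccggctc

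ACGTG or GCGTG was found at 4 of the 11 starts, 1 each of Amn, Dab2, Clcn5 and Lrpap1, and at none of Lrp2, Cubn, Ocrl and Ctns. In Amn the letters were read on both strands of the same palindrome, CACGTG, which begins 26 bases before the start and is also the E-box of other factors. In Lrpap1 they lay 208 bases before the start. Of 32851 mouse start regions of this length, 43.8% hold one of these letter groups (ACGTG 19.6%, GCGTG 32.4%). The half-site GTTAAT of the tubule factor HNF1, which 7.10% of the regions hold, was found only at 1 start of Dab2. A match is a description of the letters and not a binding site, and binding was not measured here.

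The main comparison asked whether the mRNA of the machinery differed between TG+ and TG− cortex. None of the 8 genes passed the threshold of the study (fold change above 2 or below 0.5 with an adjusted p below 0.01), at which 0.211% of the 19399 tested genes were lower and 3.77% were higher. Without a minimum fold and at an adjusted p below 0.05 (quasi-likelihood test of edgeR, Benjamini-Hochberg over all tested genes), Lrp2, Clcn5, Ctns and Amn fell in TG+ and none rose. In total 10.9% of tested genes were lower and 15.4% higher by this rule, or 18% and 12.9% of the 10181 genes with a mean of at least 10 CPM, as all 8 have. The median log2 fold change was −0.24 for the 8 genes, against 0.01 over all tested genes and −0.05 over genes of at least 10 CPM. All 3 TG+ mice lay below all 3 TG− mice for 5 of the 8 genes, a separation shown by 20.8% of tested genes of any level. This share was not computed for genes of at least 10 CPM. The reads come from whole cortex, so fewer proximal tubule cells and less mRNA per cell cannot be told apart.

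**Figure D1:**
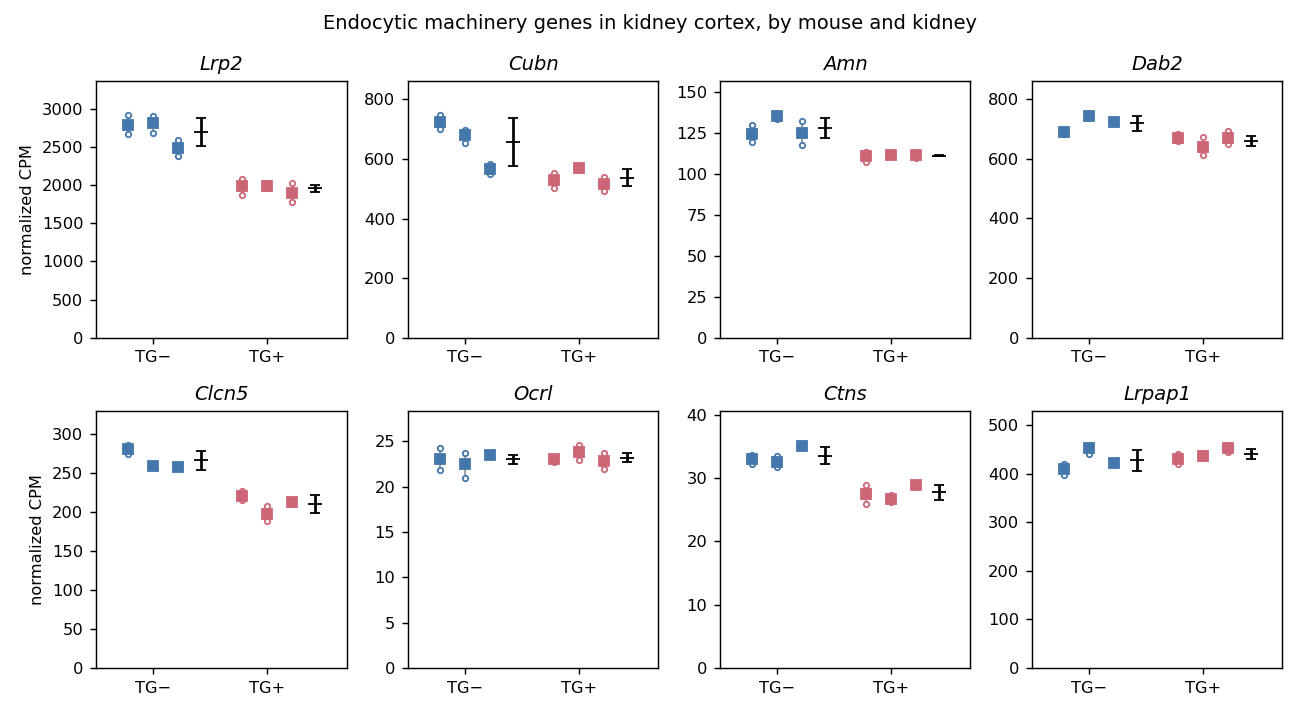
Normalized CPM (y axis, from 0) of the 8 genes in TG− and TG+ kidney cortex. Squares are mice, open circles their 2 kidneys (some lie under a square), and black bars the mean ± SD of 3 mice. All TG+ mice lie below all TG− mice for Lrp2, Amn, Dab2, Clcn5 and Ctns, and the groups overlap for Cubn, Ocrl and Lrpap1.

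Among the receptors, Lrp2 was at 1980, 1984 and 1899 CPM in the TG+ mice and at 2791, 2808 and 2484 CPM in the TG− mice. Every TG+ mouse lay below every TG− mouse, and the gap between the groups was wider than the spread within either. The log2 fold change was −0.46 (SE 0.06, adjusted p = 0.00213, edgeR), so that Lrp2 mRNA fell by 27.5%. The value remained between −0.52 and −0.43 on the log2 scale when any 1 mouse was left out. Cubn was at 531, 568 and 515 CPM in TG+ and at 725, 680 and 567 CPM in TG−, so that the lowest TG− mouse, 43-76, lay just under the highest TG+ mouse. The log2 fold change of Cubn was −0.29 (SE 0.09, adjusted p = 0.0551, edgeR) and did not pass the test. Without 43-76 it was −0.39 with an adjusted p of 0.0180 (edgeR). Without 43-26 it was −0.22 with an adjusted p of 0.147 (edgeR). DESeq2 and several other settings called Cubn lower, whereas in kidney 2 alone (−0.22, adjusted p = 0.157, edgeR) it was not called, so its call depends on the settings.

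The receptor partners differed from each other. Amn was at 111, 112 and 112 CPM in TG+ and at 125, 135 and 125 CPM in TG−, with no overlap. Its log2 fold change was −0.20 (SE 0.05, adjusted p = 0.0271, edgeR), and this call was lost without 43-29, 43-75, 43-50 or 43-76 (adjusted p = 0.0641, 0.0664, 0.0818 and 0.0608, edgeR). Lrpap1, the RAP chaperone, was at 431, 437 and 452 CPM in TG+ and at 409, 452 and 422 CPM in TG−. The groups overlapped and the log2 fold change was 0.04 (SE 0.06, adjusted p = 0.636, edgeR), or 0.0094 without 43-26 and 0.081 without 43-50. Dab2 was at 670, 639 and 670 CPM in TG+ and at 690, 741 and 722 CPM in TG−. The Dab2 groups did not overlap, but the difference of −0.12 on the log2 scale (SE 0.05, adjusted p = 0.136, edgeR) did not pass the test.

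Of the endosomal genes, Clcn5 was at 220, 197 and 212 CPM in TG+ and at 280, 259 and 258 CPM in TG−. The groups did not overlap, and with a log2 fold change of −0.34 (SE 0.06, adjusted p = 0.00720, edgeR) Clcn5 mRNA fell to 0.790 of its TG− level. It was called lower whichever mouse was left out (−0.39 to −0.30 on the log2 scale). Ocrl, whose loss gives a Dent-like disease in people as that of Clcn5 does, was at 23.0, 23.8 and 22.8 CPM in TG+ and at 23.0, 22.5 and 23.5 CPM in TG−. Its values overlapped, with a log2 fold change of 0.01 (SE 0.05, adjusted p = 0.894, edgeR). The lysosomal gene Ctns was at 27.5, 26.7 and 29.0 CPM in TG+ and at 32.9, 32.5 and 35.1 CPM in TG−, again with no overlap. Ctns fell by 17.3% (log2 fold change −0.27, SE 0.06, adjusted p = 0.0133, edgeR), a call that was lost without 43-76 (−0.24, adjusted p = 0.0571).

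For a single gene, an exact 2-sided permutation test of 3 against 3 mice cannot give a p below 0.1, and it gave that value for each of the 5 genes without overlap. The kidneys of 1 mouse differed by at most 0.19 on the log2 scale for Lrp2 and by at most 0.08 for Lrpap1, with the largest differences of the other 6 genes between these bounds. The difference between groups of Lrp2 (−0.46) and of Clcn5 (−0.34, kidneys at most 0.14 apart) was thus larger than any difference between the kidneys of a mouse. It was also larger for Cubn and Ctns, and for Amn only a little larger (−0.20 against 0.17). For Dab2 it was smaller (−0.12 against 0.14), as it was for Ocrl and Lrpap1.

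The calls depended on how the libraries were scaled. The results above use TMM factors, which were above 1 in every TG+ mouse (1.03 to 1.07) and below 1 in every TG− mouse (0.944 to 0.968). Scaled by library size alone, the median of all tested genes moved to 0.13 on the log2 scale, and that of the 8 genes to −0.12. Under that scaling Lrp2 (−0.34, adjusted p = 0.00484, edgeR) and Clcn5 (−0.22, adjusted p = 0.0266, edgeR) were still called lower, while Amn (−0.08) and Ctns (−0.15) were not and Lrpap1 (0.16, adjusted p = 0.0461, edgeR) was called higher. The genes not called under either scaling moved as well, Cubn to −0.17 (adjusted p = 0.224, edgeR), Dab2 to −0.0020 (adjusted p = 0.980, edgeR) and Ocrl to 0.13 (adjusted p = 0.144, edgeR). In all, 2 of the 8 genes were then lower and 1 higher, beside 4.88% and 23.3% of tested genes.

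The machinery was also set against other genes of the same cells. Of the 20 proximal tubule markers, 10 fell and 2 rose, beside 18% and 12.9% of genes of at least 10 CPM. The median of the markers was −0.31, and their summed level was 18885 to 19449 CPM in TG+ and 25394 to 28494 CPM in TG−. Slc34a1, the sodium-phosphate cotransporter NaPi-IIa, had 4883, 5148 and 5193 CPM in TG+ and 8298, 9070 and 8430 CPM in TG−. Slc22a6, the organic anion transporter OAT1 and the only marker past the threshold of the study, was at −1.09 on the log2 scale. The 2 markers that rose were Ace (0.74), angiotensin-converting enzyme, and Mme (0.33), neprilysin, both brush border peptidases. The libraries were also centred on this list by shifting the scaling factors of all TG+ mice by its median log2 fold change. This shift is the same for each TG+ mouse and is taken as known, so single mice are not adjusted for their own marker levels. None of the 8 endocytic genes was then called lower. Lrp2 was then at −0.15 (adjusted p = 0.0784, edgeR) and Clcn5 at −0.03. Cubn, Amn and Ctns lay at 0.02, 0.11 and 0.04, and Dab2 (0.19), Ocrl (0.33) and Lrpap1 (0.36) were called higher. With this centring 57% of all tested genes were called higher and 1.75% lower, so 3 of 8 is no larger a share of higher genes than among all genes.

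**Figure D2:**
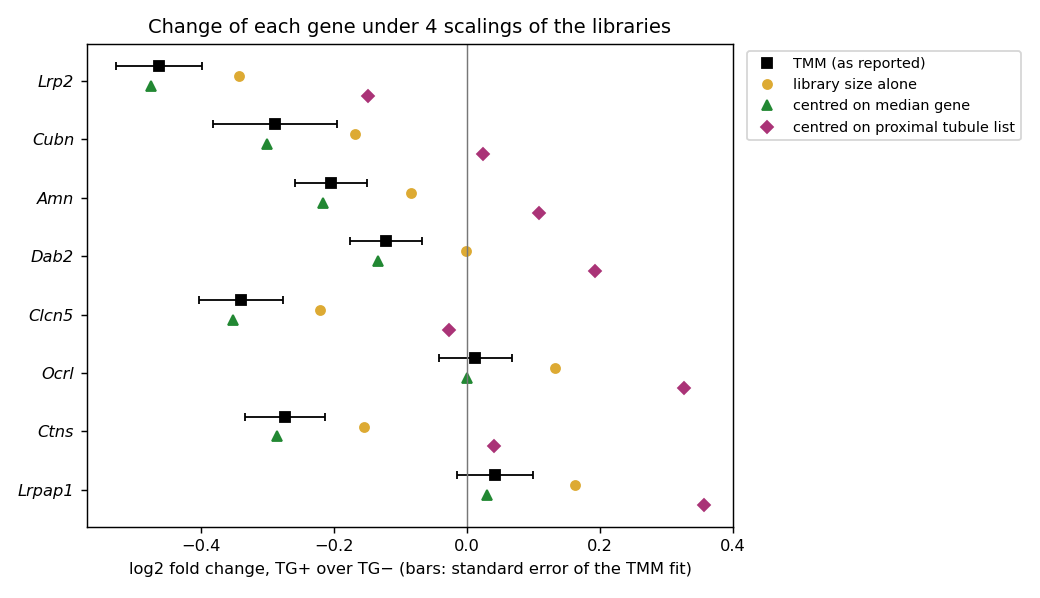
Log2 fold change of TG+ over TG− (x axis) for the 8 genes under 4 scalings of the libraries. Bars are the standard error of the TMM fit from 3 mice a group. Lrp2 lies left of 0 under all 4 scalings (−0.48 to −0.15), whereas Cubn, Amn, Dab2 and Ctns lie on the right of 0 when centred on the proximal tubule list.

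Ratios between genes within a mouse do not depend on scaling. In whole cortex they still depend on cell makeup, so they need not be ratios within tubule cells, and this was not tested. In reads, the log2 ratio of Lrpap1 to Lrp2 was −2.20, −2.18 and −2.07 in the TG+ mice and −2.77, −2.64 and −2.56 in the TG− mice. The groups did not overlap, and the TG+ mean was higher by 0.50. TG+ mice held 0.225 reads of the RAP chaperone gene per read of megalin, against 0.159 in TG− mice. The ratio of Dab2 to Lrp2 was likewise higher in every TG+ mouse, by 0.34 on the log2 scale. That of Cubn to Lrp2 was higher by 0.18, and that of Ocrl to Clcn5 by 0.35, both without overlap.

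By contrast, the ratio of Amn to Cubn, the 2 chains of the cubam receptor, overlapped between groups, with a difference of 0.08 on the log2 scale, which was −0.02 without 43-26 and 0.12 and 0.04 in kidney 1 and kidney 2 alone. Its TG+ mean ± SD was −2.27 ± 0.0708 and its TG− mean ± SD −2.35 ± 0.181 (n = 3 mice each). The ratio of Clcn5 to Lrp2 also overlapped, with a difference of 0.12, which was 0.07 without 43-50 and 0.20 and 0.04 in kidney 1 and kidney 2 alone. Over these 6 ratios the exact permutation p was 0.1 (0.15 after Benjamini-Hochberg adjustment) for the 4 without overlap, the smallest that 3 against 3 mice allow. It was 0.3 for Clcn5 to Lrp2 and 0.7 for Amn to Cubn, so none of the 6 passes 0.05. The ratios of Lrpap1, Dab2 and Cubn to Lrp2 contain the fall of Lrp2, and that of Ocrl to Clcn5 the fall of Clcn5. They thus restate these falls in part, and how often other genes separate in this way was not computed.

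**Figure D3:**
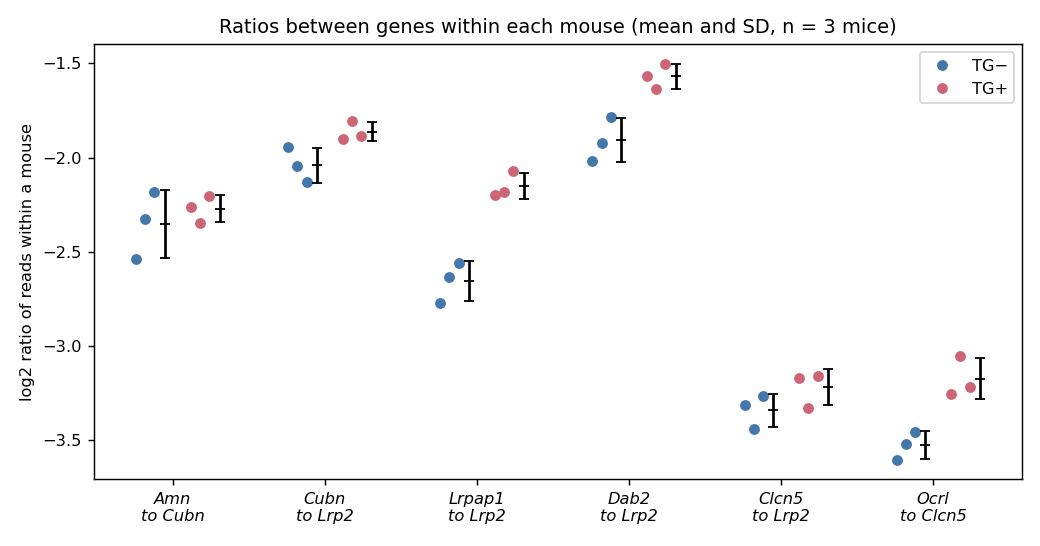
Log2 ratio of reads (y axis) of 2 genes within each mouse, for 6 pairs of genes in TG− and TG+ mice. Points are mice and black bars the mean ± SD of 3 mice. The ratio of Lrpap1 to Lrp2 shows the widest gap between groups (0.50), and Amn to Cubn and Clcn5 to Lrp2 overlap.

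Across the 12 libraries, Lrp2 and Cubn followed each other most closely, with Pearson's r of 0.91, and of 0.88 after the group means were removed. Lrp2 and Amn came to 0.90 and 0.54, and Lrp2 and Lrpap1 to −0.37 and −0.04. The 2 libraries of a mouse are not independent and all share the TMM scaling, so these values are a description without a test. Among the 10181 genes with a mean of at least 10 CPM, those most like Lrp2 over the 12 libraries were Psmc3 (r = 0.976) and Psmb4 (0.966), which encode proteasome subunits, Birc6 (0.972), Egln2 (0.963), which encodes a HIF prolyl hydroxylase, and Mrps24 (0.960), which encodes a mitochondrial ribosome subunit. Since the group difference of Lrp2 is part of this likeness, a lower level of these genes in TG+ (log2 fold changes of −0.28 to −0.20) follows in part from how they were chosen.

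The relatives of megalin did not move one way. Of 12 genes of the LDL receptor family other than Lrp2, 11 were tested, of which 4 fell and 4 rose, with a median of −0.18. Lrp11 (−0.48) and Lrp6 (−0.31), the Wnt coreceptor, had the largest falls among those called. Lrp5, the other Wnt coreceptor, rose by 0.96 on the log2 scale, with 105, 107 and 110 CPM in TG+ and 51.5, 56.6 and 57.0 CPM in TG−. Lrp1, a scavenger receptor with broad expression, rose by 0.57, with 53.6, 76.6 and 61.0 CPM in TG+ and 46.6, 41.3 and 40.7 CPM in TG−. For both genes every TG+ mouse lay above every TG− mouse.

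Among 9 other receptors of uptake and sorting, 4 fell and 1 rose, with a median of −0.08. Fcgrt, which encodes the neonatal Fc receptor that returns albumin and IgG to the blood, fell (log2 fold change −0.37, adjusted p = 0.00845, edgeR), with 188, 174 and 203 CPM in TG+ and 229, 256 and 246 CPM in TG−. Folr1, which encodes the folate receptor, fell by 0.37, with 336, 287 and 330 CPM in TG+ and 409, 420 and 403 CPM in TG−. Scarb1, the HDL receptor, rose by 0.64. The smallest fall among those called was that of Cd320 (−0.27), the receptor of transcobalamin with vitamin B12.

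Further along the route, few genes of the coat changed. Of 23 clathrin coat and adaptor genes 2 fell and none rose, Inpp5b (−0.27), the paralog of Ocrl, and Fcho2 (−0.17), with a median of −0.11 for the list. Of 21 endosome sorting genes 6 fell and none rose (median −0.14). They included Ehd1 (−0.28), a factor of receptor recycling, and Vps35 (−0.25), Vps29 (−0.21) and Vps26a (−0.22), the cargo core of the retromer complex. The sorting nexin Snx2 (−0.20) had the smallest of these falls. Vps35 had 221, 205 and 221 CPM in TG+ and 267, 256 and 248 CPM in TG−, with no overlap.

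The proton pump that acidifies the endosome showed 5 falls and no rise among 22 V-ATPase genes (median −0.11). Atp6v0a4 (−0.32), the a4 subunit of the kidney, and Atp6v1b2 (−0.31) fell the most, and Atp6ap2 (−0.22) and Atp6v1d (−0.22) the least among those called. Of 5 other genes of intracellular chloride exchangers, Clcn6 (−0.42), Clcn4 (−0.19) and Clcn7 (−0.18), the lysosomal exchanger, fell and none rose. Of 25 lysosome genes 10 fell and 2 rose (median −0.15). Neu1, a sialidase, fell by 0.43 and Man2b1, a mannosidase, by 0.35. Glb1, the lysosomal galactosidase, rose by 0.39, with 245, 235 and 245 CPM in TG+ and 179, 198 and 175 CPM in TG−, and Scarb2 rose by 0.23.

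The counts of some lists are near those of other genes, and several depend on scaling. At least 10 CPM on average was reached by nearly all genes of these lists, and of genes at that level 18% were called lower and 12.9% higher. Beside it, the share called lower was 8.70% in the clathrin list, 22.7% in the V-ATPase list, 28.6% in the endosome sorting list, 36.4% in the LDL receptor family, 40.0% in the lysosome list, 44.4% among the 9 uptake receptors and 60.0% among the 5 chloride exchangers. The share called higher was 36.4% in the LDL receptor family, 11.1% among the uptake receptors, 8.0% in the lysosome list and 0 in the other lists named here. Scaling by library size alone, under which 4.88% of all tested genes were lower and 23.3% higher, left no call of a lower gene in the endosome sorting and clathrin lists, where 1 and 3 genes were called higher. In the V-ATPase list it gave 2 lower and 2 higher, in the LDL receptor family 1 and 4, among the uptake receptors 3 and 2, among the chloride exchangers 1 and 0, and in the lysosome list 6 and 2. The medians of the clathrin (0.01), V-ATPase (0.01) and uptake receptor (0.04) lists then turned just above 0, with the median of all tested genes at 0.13, and those of the lysosome (−0.03), endosome sorting (−0.02), chloride exchanger (−0.06), LDL receptor family (−0.06) and proximal tubule (−0.20) lists were below 0.

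**Figure D4:**
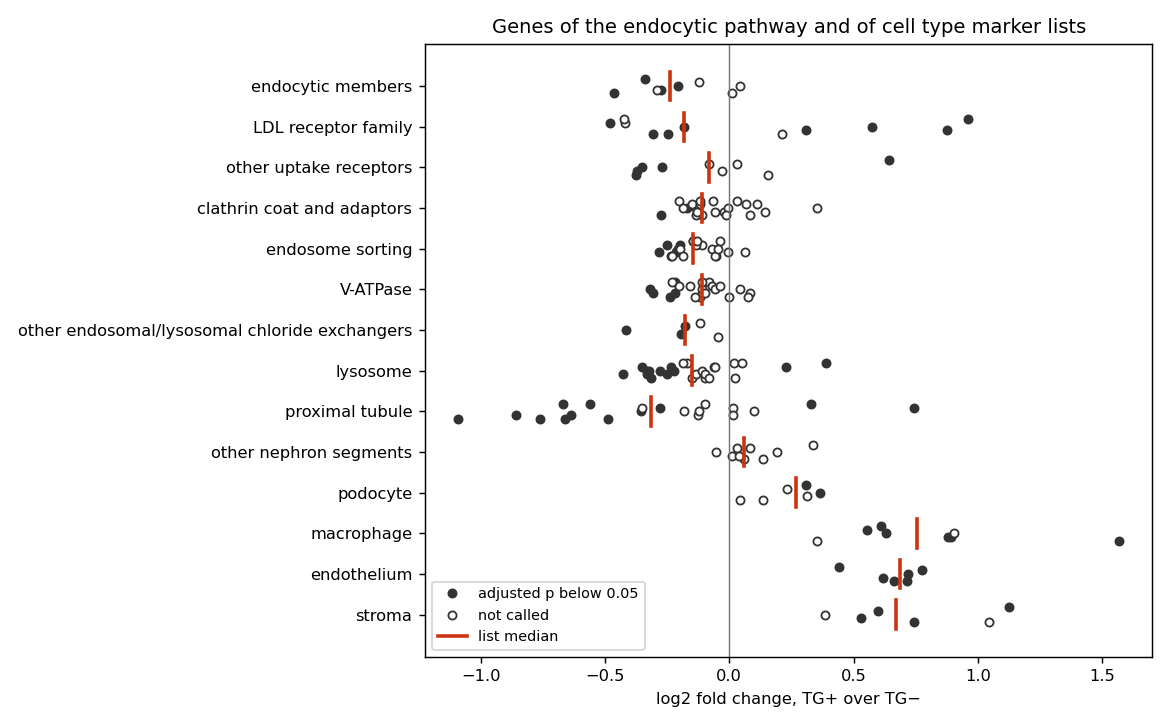
Log2 fold change of TG+ over TG− (x axis) of the genes of each list, with the 8 endocytic genes on top. Filled points passed an adjusted p below 0.05, open points did not, and the red bar is the list's median. The medians of the 8 upper lists lie between −0.24 and −0.08, and macrophage, endothelium and stroma markers lie on the right.

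Most markers of cells outside the tubule were higher in TG+, where 15.4% of all tested genes were called higher and 10.9% lower. Of 8 macrophage markers 6 rose and none fell (median 0.75), and their summed level was 181 to 203 CPM in TG+ and 105 to 141 CPM in TG−. Csf1r, the most abundant, had 72.3, 75.5 and 78.6 CPM in TG+ and 46.4, 52.9 and 46.8 CPM in TG−. All 6 endothelium markers rose (median 0.69, summed 499 to 537 CPM against 293 to 386 CPM), Eng among them with 0.44, and 4 of 6 stroma markers rose (median 0.67, summed 177 to 241 CPM against 117 to 138 CPM), Pdgfrb among them with 0.74. Of 5 lymphocyte markers Cd3e, Cd4, Cd79a and Cd79b rose, at a summed level of 7.74 to 12.2 CPM in TG+ and 3.23 to 3.96 CPM in TG−.

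Of 6 podocyte markers 2 rose, among them Podxl (0.37), or 4 when scaled by library size alone, beside 15.4% and 23.3% of tested genes. They had a summed level of 558 to 650 CPM in TG+ and 427 to 513 CPM in TG−. Of 9 markers of other nephron segments, led by Umod, none was called under TMM and 3 were called higher under scaling by library size alone, with a summed level of 3995 to 5349 CPM in TG+ and 4335 to 4416 CPM in TG−. Of 7 tubule injury markers 6 rose under either scaling (median 1.49, summed 54.4 to 98.5 CPM in TG+ and 15.9 to 39.2 CPM in TG−), among them Havcr1 (2.78), which encodes KIM-1, Krt19 (1.91), Cd44 (1.49) and Vcam1 (1.12). None of these lists had a marker at 0 reads in any mouse. The part of cell makeup in the lower levels of the endocytic genes was not tested.

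Of 7 transcription factors of the tubule, 3 fell and 1 rose. Hnf4a (−0.33), Ppara (−0.55) and Rxra (−0.44) were lower and Pparg (2.40) was higher, beside 10.9% and 15.4% of tested genes. Scaled by library size alone, Hnf4a and Ppara were no longer called, and Rxra and Pparg still were. Rxra, the partner of PPAR and vitamin D receptors, had 192, 192 and 190 CPM in TG+ and 261, 271 and 245 CPM in TG−. Pparg had 6.25, 5.84 and 6.49 CPM in TG+ and 1.31, 1.16 and 1.04 CPM in TG−. None of the 3 vitamin D genes Cyp27b1, Cyp24a1 and Vdr was called. Vitamin D metabolism depends on megalin, which takes up 25-hydroxyvitamin D with its binding protein.

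Several ligands of megalin and cubilin changed as mRNA in the cortex itself. Of 11 such genes 6 rose and 2 fell, beside 15.4% and 10.9% of all tested genes, with a median of 0.47. Apoa1, 1 of the 6, was near the floor in TG− and passed the filter on low counts through its TG+ level. Only a rise could be called for it. Rbp4, the plasma retinol carrier and a ligand of megalin, was at 79.9, 51.1 and 63.5 CPM in TG+ and at 0.507, 0.543 and 0.327 CPM in TG− (log2 fold change 7.12, SE 0.24, adjusted p = 3.5e-06, edgeR). Gc, the vitamin D binding protein, was at 71.8, 119 and 96.4 CPM in TG+ and at 13, 15.5 and 11.9 CPM in TG− (2.83). Ttr, transthyretin, which binds Rbp4 in plasma, was at 90.6, 97.1 and 76.9 CPM in TG+ and at 27.5, 42.7 and 28.6 CPM in TG− (1.42). The groups were wide apart for all 3 genes, and their proteins in blood come mainly from the liver.

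Apoa1, the main HDL apolipoprotein and a ligand of cubilin, was at 2.04, 2.01 and 2.13 CPM in TG+ and at 0.0585, 0.333 and 0.0819 CPM in TG−, where a mouse had as few as 3 reads. The microglobulin gene B2m and the cystatin gene Cst3 rose by 0.38 and 0.26. Apoh fell (−1.41), with 5.40, 4.35 and 5.02 CPM in TG+ and 11.6, 15.4 and 12.1 CPM in TG−, and so did Tcn2 (−0.42), which encodes transcobalamin. Alb, the albumin gene, was at 8.71, 12.1 and 12.3 CPM in TG+ and at 6.16, 10.8 and 7.0 CPM in TG−, with overlap and no call (adjusted p = 0.160, edgeR). Protein was not measured here.

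**Figure D5:**
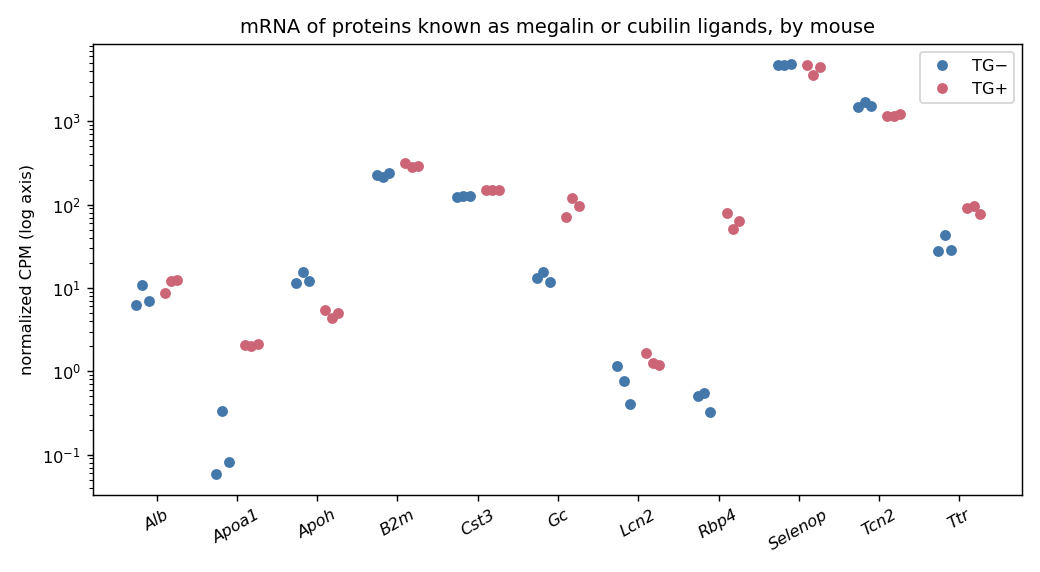
Normalized CPM (log axis) of 11 genes of known megalin or cubilin ligands. Points are the 3 mice of each group. Rbp4, Gc, Ttr and Apoa1 lie higher in every TG+ mouse, Apoh and Tcn2 lie lower, and Alb, Lcn2 and Selenop were not called.

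Lrp2 and Cubn have transcripts of over 10000 bases. Among genes of at least 10 CPM, 251 had a longest transcript of 10000 bases or more, with a median log2 fold change of −0.04 and 15.5% called lower. Of 9691 shorter genes, 18.2% were called lower, with a median of −0.05.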

How the data were processed

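RNA from kidney cortex was sequenced as 51-bp single-end reads and analysed by the authors mainly with the Tuxedo tools. The build is mm9 by the submitters' processing notes, and the counting program, annotation and handling of strand are not given in the sources used here. The authors deposited 1 table with, for each of 12 libraries, the read counts per gene without normalization, RPKM values with a scaling named BUQ in the header, and their log2. The deposited log2 values were not used, nor were the fold changes, p-values and q-values of the authors' own comparison.

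Counts of the 2 kidneys of a mouse were summed. Genes were kept by filterByExpr (19399 of 37681), scaled by TMM and fitted in R 4.3.3 by the quasi-likelihood method of edgeR 4.0.16 (which uses limma 3.58.1). Adjusted p-values are Benjamini-Hochberg values over all tested genes, and CPM use the TMM-scaled library sizes. p-values measure the spread between 3 mice a group. Totals of 48052131 reads or more per mouse limit counting error, for which no intervals were computed. Ratios within a mouse were tested by exact permutation over 20 assignments. The biological coefficient of variation was 0.114. On simulated data of 19249 genes drawn from the real means, 91 of 97 genes changed 4-fold and 41 of 99 changed 1.5-fold were called, with 7 false calls, and 19245 genes without a change gave 0 calls.

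Gene positions came from GENCODE M21, matched by Ensembl identifier for 32661 genes, and start regions from RefSeq, matched by symbol for all 8 genes. The 8 genes, the pathway and marker lists and the tests were chosen with earlier results of these data known. Named are the 8 genes, list members past the threshold of the study, up to 2 called members at each end of a pathway list with at least 1 CPM, the most abundant marker of a cell type, and the 5 genes most like Lrp2. Car9, Hif1a, Vps26a, B2m, Cst3, Alb, Lcn2, Selenop and the vitamin D genes were named after their values were seen. Alternatives were DESeq2 1.42.0, no filter, kidneys as libraries or 1 kidney only, littermate pairs as a block, each mouse left out in turn, 4 other scalings and other limits. Tables and plots were made in Python 3.11.15 (pandas 2.3.3, numpy 2.4.6, scipy 1.17.1, matplotlib 3.10.9).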

Additional observations from a re-analysis of the deposited data

How the results depend on the processing

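The limits are 3 mice a group, whole cortex as the tissue, and the dependence of small differences on scaling. None of the 8 genes passed the threshold of the study under any alternative run. Lrp2 and Clcn5 were called lower at an adjusted p below 0.05 in all alternative fits except that centred on the proximal tubule list (−0.15 and −0.027 on the log2 scale). Under that centring Cubn (0.024), Amn (0.11), Dab2 (0.19) and Ctns (0.040) turned positive, Ocrl (0.33) and Lrpap1 (0.36) passed the test, and 0 of the 8 were lower and 3 higher, as were 340 and 11052 of all genes at an adjusted p below 0.05 and 11 and 1745 with the fold limit. Scaled by library size alone, Amn (−0.085) and Ctns (−0.15) missed the test and Lrpap1 (0.16) passed it, leaving 2 of the 8 lower and 1 higher. Of all genes, 947 were then lower and 4511 higher (2105 and 2982 as reported), or 22 lower with the fold limit (41 as reported), and the medians of the uptake receptor (0.039), clathrin (0.011) and V-ATPase (0.0095) lists turned positive.

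Cubn passed the test with DESeq2 (−0.30), without a filter (−0.29), with each kidney as a library (−0.28), in kidney 1 (−0.34), under upper-quartile scaling (−0.30) and centred on the median gene (−0.30). With each kidney as a library Dab2 (−0.11) passed too, and 3812 genes were lower and 4476 higher, as the kidneys of a mouse then count as independent. Amn missed the test in kidney 1 (−0.22) and kidney 2 (−0.18). Ocrl was just below 0 in kidney 2 (−0.0045), under upper-quartile scaling (−9.7e-04) and centred on the median gene (−4.3e-05). At an adjusted p below 0.01, 2 of the 8 were lower, with 824 genes lower and 1534 higher in all, and with a fold of 1.5 at 0.05 it was 0 of the 8.

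The paper calls the TG− mice littermates, and which mice form a pair is given only by the deposited table's title, which does not name litters. The mice of a pair deviated together in 2 pairs (correlations 0.33 and 0.39) but not in the third (−0.02). Mice of different pairs were not compared in this way, so this check cannot decide the pairing. The mice were not taken as paired in the main fit. With the pairs as a replicate block Cubn passed the test (−0.28, adjusted p = 0.0316, edgeR), 5 of the 8 were lower, and no other call among them changed. Of all genes, 2499 were then lower and 3413 higher at an adjusted p below 0.05 (edgeR).

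Leaving out each mouse in turn gave −0.39 to −0.22 for Cubn, −0.23 to −0.17 for Amn, −0.32 to −0.24 for Ctns and −0.0099 to 0.026 for Ocrl, and 0.0094 to 0.081 for Lrpap1, which was not called in any of these fits. It gave −0.016 to 0.16 for the log2 ratio of Amn to Cubn, negative without 43-26, and 0.072 to 0.18 for that of Clcn5 to Lrp2. All genes came to 1199 to 2023 lower and 1985 to 2757 higher, and with the fold limit to 469 to 633 higher, the lowest without 43-76. The cause of these changes was not tested.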
